A study of Mus musculus with 8 samples.

Results

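The MAP kinase phosphatases are dual-specificity phosphatases that inactivate the MAP kinases ERK, JNK and p38. The 9 genes described here are Dusp1, Dusp2, Dusp4, Dusp5, Dusp6, Dusp7, Dusp8, Dusp10 and Dusp16, taken by name from the deposited table. The list was named with earlier results of these data known. They are 9 of 54134 genes in the table, and all 9 are among the 14985 genes that passed the filter on low values (at least 1 TPM in at least 2 libraries). TPM is reads over gene length scaled to one total per library.

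RNA came from 8 libraries of mouse bone marrow adipocytes, named BMAd in the labels, of wild-type (WT) genotype. All groups share the source cells, bone marrow stem cells, and 14 days of adipogenic differentiation with a commercial kit (StemPro). The Control group (n = 2) had differentiation alone. The GC group (n = 3) then had 1e-06 M dexamethasone, a synthetic glucocorticoid given in the labels as DEX, for 24 hours, and the GC+GW9662 group (n = 3) had the same dexamethasone together with GW9662, an antagonist of the fat-cell receptor PPARgamma whose dose the labels do not give. The study's design text puts the question as what a glucocorticoid does to differentiated adipocytes with and without the PPARgamma inhibitor. No group had GW9662 alone, so the effect of the inhibitor without dexamethasone was not measured. Separate animals or cultures are not named for the libraries within a group. The p-values therefore read the spread among these libraries alone, which may be technical.

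MAP kinases are switched on by phosphorylation of a threonine and a tyrosine in their activation loop, and these phosphatases remove both phosphates. Dusp1, Dusp2, Dusp4 and Dusp5 encode inducible enzymes of the nucleus, Dusp6 and Dusp7 encode cytoplasmic enzymes selective for ERK, and Dusp8, Dusp10 and Dusp16 encode enzymes that act mainly on JNK and p38. Several are themselves induced by the kinases they switch off and so form feedback loops. Dusp1 is also a textbook glucocorticoid-induced gene, as are Fkbp5, a chaperone partner of the glucocorticoid receptor, and Tsc22d3, which encodes the anti-inflammatory protein GILZ.

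Fkbp5 and Tsc22d3 went against the labels, so the groups are called the libraries labelled GC and GC+GW9662. Fkbp5 was 446 ± 24.1 TPM (SD, n = 2) in Control and 58.5 ± 24.2 (SD, n = 3) in the libraries labelled GC, a log2 difference of -3.00 ± 0.33 (SE; adjusted p = 1.4e-04, limma with Benjamini-Hochberg adjustment). Tsc22d3 fell from 557 ± 20.98 to 59.6 ± 7.70 TPM (adjusted p = 8.7e-07, limma) and was 429 ± 27.2 TPM with GW9662. Fkbp5 was 95.4 ± 14.3 TPM with GW9662, 4.68-fold below Control (adjusted p = 0.0020, limma), and did not pass against GC (log2 difference 0.78 ± 0.30, adjusted p = 0.0501, limma). Estimated depth was 25248133 and 26549055 reads in the Control libraries and 17448766 to 18482805 in GC+GW9662. In GC it was 17696912 for replicate 1, and 25639344 and 24963302 for replicates 2 and 3. Depth thus differed between the groups, and its part in the results was not tested. Libraries of a group correlated at 0.947 to 0.994 on the log2 scale across genes, lowest for pairs with GC replicate 1. The 8 adipocyte markers summed to 1424 to 1443 TPM in the Control libraries, 320 to 339 in those labelled GC and 1295 to 1448 with GW9662, with Lep at 0 in every library. For 9 macrophage markers the sums were 30904 to 31809, 9441 to 9988 and 24435 to 28423 TPM, above the adipocyte sum in every group. Sums in the same order were 1085 to 1134, 41.5 to 84.2 and 299.9 to 325 TPM for 6 stroma markers, and 9390 to 9530, 236 to 349 and 8767 to 8822 TPM for 3 smooth muscle type markers. Of 5 neutrophil markers 1 reached 1 TPM in each group, and their sum was at most 26.0 TPM in Control, 249 to 549 TPM in GC and 71.1 to 82.4 TPM with GW9662. The 6 lymphocyte markers and 4 endothelial markers summed to at most 9.16 TPM in any library, with Ms4a1 at 0 throughout. A sum is led by its most abundant genes. In GC against Control 6 of 7 tested adipocyte markers fell and 0 rose (median log2 difference -5.03). Of the 9 macrophage markers 8 fell there and 1 rose (median -4.41). Between GC+GW9662 and Control 3 adipocyte markers rose and 2 fell, and 6 macrophage markers fell and 0 rose. These marker levels move with the groups compared below, and their part in the results was not tested. In bulk RNA, fewer cells of a type and less RNA per cell cannot be told apart. One gene, Fth1, the ferritin heavy chain, took 13.3% to 13.5% of all TPM in GC and 3.69% to 3.91% elsewhere. TPM shares a fixed total, and the median log2 difference of all genes tested was -0.38 in GC against Control, -0.11 in GC+GW9662 against GC and -0.49 in GC+GW9662 against Control. Median-ratio scaling, an alternative that centres most genes, moved these medians to 0.05, 0.02 and 0.04, and each of the 9 genes is given on that scale in 1 or more comparisons.

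Counted together, 6 of the 9 passed in GC against Control (4 higher and 2 lower), where 55.3% of all genes tested passed (16.2% higher and 39.1% lower) at an adjusted p of 0.05. The same 6 had groups that did not overlap, as had 71.9% of all genes. With GW9662 added, 8 of 9 passed against GC (1 higher and 7 lower), beside 61.7% of all genes (28.3% higher and 33.5% lower). The groups of those 8 did not overlap, as in 64.1% of all genes. Between GC+GW9662 and Control 7 of 9 passed (1 higher and 6 lower), beside 62.7% of all genes (14.1% higher and 48.6% lower), and 8 of 9 did not overlap, beside 79.0%. The 6 of 9 called in GC against Control lie near the background in total, while the 4 called higher there and the 7 called lower with GW9662 against GC are larger shares than over all genes. These shares were not tested, since the 9 genes are a small list named with results known. The median log2 difference over the 9 was 0.40, -1.28 and -0.60 in the 3 comparisons, beside the all-gene medians above. After median-ratio scaling the split of the 9 was 5 higher and 1 lower in GC against Control, 1 and 7 in GC+GW9662 against GC, and 3 and 2 in GC+GW9662 against Control. The same scaling moved the split of all genes to 4077 higher and 4007 lower, 4697 and 4671, and 4494 and 4610. The comparisons share libraries: GC enters the first 2 with opposite sign, so a rise in one and a fall in the other are not independent results. Between GC+GW9662 and Control the balance turned round in 2 other alternatives. After quantile normalization 2 of 9 passed, 2 higher and 0 lower, and with the gene-length trend removed 4 were higher and 1 lower.

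**Figure D1:**
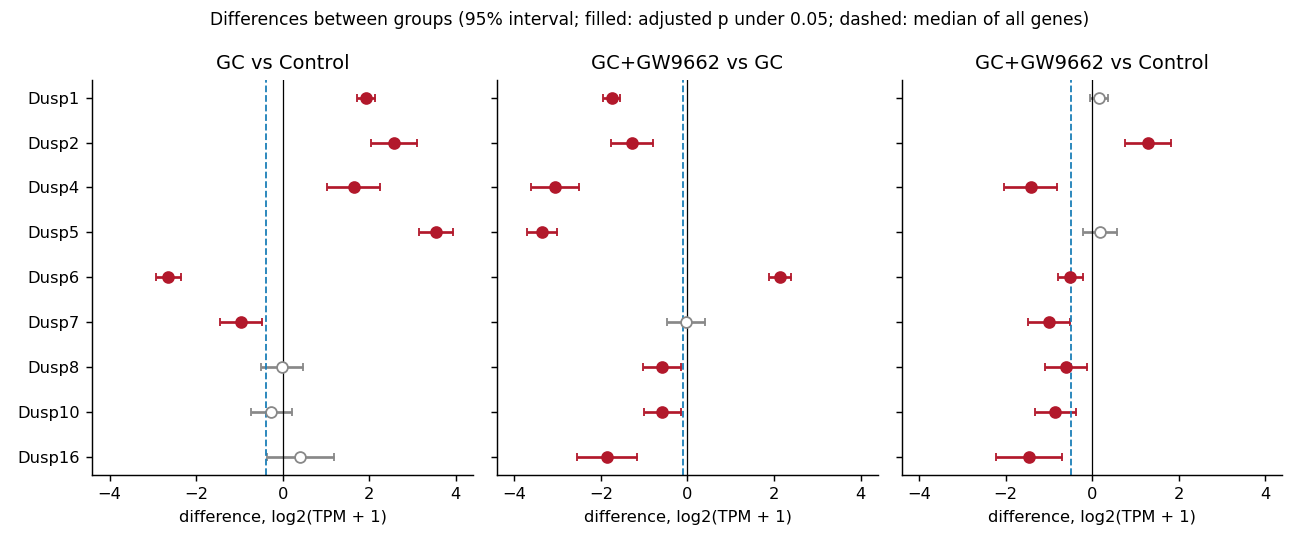
Log2(TPM + 1) difference of each of the 9 genes in the 3 comparisons, with 95% intervals from limma; filled points passed at an adjusted p of 0.05 and the dashed line is the median of all genes. Dusp5 and Dusp6 lie at opposite ends in GC against Control (3.55 and -2.65) and change sides in GC+GW9662 against GC (-3.36 and 2.14).

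The nuclear phosphatases Dusp1, Dusp2, Dusp4 and Dusp5 all rose in the libraries labelled GC and all fell again in those with GW9662. In GC against Control, Dusp5 and Dusp2 had the larger fold changes of the 4. Against GC, the fold decrease with GW9662 was larger for Dusp5 and Dusp4, and smallest for Dusp2.

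Promoter sequences are shown for Dusp1 and Dusp5, which rose with the lowest adjusted p in the libraries labelled GC, and for Dusp6, which fell furthest. A promoter here is 250 bases before to 50 bases after the start given in RefSeq on GRCm38.p6. Of the 9 genes 8 were matched (all but Dusp4). That start can differ from the deposited gene position. The windows of Dusp10 (chr1:184034131-184034430) and Dusp8 (chr7:142095235-142095534) lie inside the genes as placed below. Capitals mark matches, on either strand, to the cAMP response element (CRE) TGACGTCA, its shorter form TGACG, or the CArG box bound by serum response factor.
Dusp1, chr17:26508423-26508722, minus strand: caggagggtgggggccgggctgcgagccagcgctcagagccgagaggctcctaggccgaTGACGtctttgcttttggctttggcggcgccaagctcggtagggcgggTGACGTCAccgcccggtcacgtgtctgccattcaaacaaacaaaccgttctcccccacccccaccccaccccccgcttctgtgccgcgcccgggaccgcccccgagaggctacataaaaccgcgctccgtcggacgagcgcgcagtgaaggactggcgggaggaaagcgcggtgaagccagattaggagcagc
Dusp5, chr19:53528895-53529194, plus strand: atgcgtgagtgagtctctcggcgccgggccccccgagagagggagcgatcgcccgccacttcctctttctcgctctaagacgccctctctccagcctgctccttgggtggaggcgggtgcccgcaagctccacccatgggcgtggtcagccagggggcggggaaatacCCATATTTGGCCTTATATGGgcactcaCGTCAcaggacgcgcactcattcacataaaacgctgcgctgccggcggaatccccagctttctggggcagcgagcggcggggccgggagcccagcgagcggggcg
Dusp6, chr10:99262981-99263280, plus strand: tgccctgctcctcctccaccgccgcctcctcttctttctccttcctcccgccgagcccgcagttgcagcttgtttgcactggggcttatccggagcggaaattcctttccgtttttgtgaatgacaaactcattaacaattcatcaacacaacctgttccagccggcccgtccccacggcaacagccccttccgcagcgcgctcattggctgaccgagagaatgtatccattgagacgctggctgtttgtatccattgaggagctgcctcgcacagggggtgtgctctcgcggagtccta
The Dusp1 promoter held a full CRE at -143 to -136 from the start, which contains TGACG on both strands, and a separate TGACG at -191 to -187. The Dusp5 promoter held a pair of adjacent CArG boxes at -82 to -73 and -72 to -63 and TGACG on the minus strand at -55 to -51. The Dusp6 window held none of these letters. Over all 27025 promoters a full CRE was in 1.88%, TGACG in 5681 promoters and a CArG box in 1.57%, against 2, 5 and 1 of the 8 phosphatase promoters. The genes with a full CRE were Dusp1 and Dusp8, and Dusp8, which held 2, did not pass in GC against Control. The AP-1 site TGANTCA (7.93% of promoters), the short glucocorticoid receptor motif AGAACA (19.0%) and the ETS site CCGGAAG (9.12%) were searched on both strands and matched in 0 of the 8 windows. The windows were rich in G and C, 67.0% for Dusp1, 66.7% for Dusp5 and 57.3% for Dusp6, beside a median of 52.7%. A match describes the sequence only.

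Dusp1 (chr17:26505590-26508519, minus strand) encodes MKP-1, which acts on p38, JNK and ERK. It was the most abundant of the 9 genes in every library. It stood at 187 and 186 TPM in Control, at 660.3, 751 and 711 TPM in GC, and at 211, 207 and 209.8 TPM in GC+GW9662. Every GC library lay above every other library. The mean was 3.80-fold higher in GC than in Control, a difference of 1.92 ± 0.0925 on the log2(TPM + 1) scale (SE; adjusted p = 2.0e-06, limma), and 2.47 after median-ratio scaling. With GW9662 it was 3.38-fold lower than in GC (log2 difference -1.75 ± 0.0828, adjusted p = 1.8e-06, limma). GC+GW9662 against Control gave 0.17 ± 0.0925 (adjusted p = 0.15, limma; 95% interval -0.05 to 0.38), although its 3 libraries all lay above both Control libraries. That last difference was 0.89 (adjusted p = 0.0034) after median-ratio scaling, 0.63 (0.0032) with the gene-length trend removed and 0.17 (0.021) in a fit of these 2 groups alone, against adjusted p-values up to 0.36 over the 21 alternatives.

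Dusp5 (chr19:53529109-53542431, plus strand) encodes a nuclear phosphatase specific for ERK. Its level was 12.7 and 12.0 TPM in Control, 139, 170.1 and 157 TPM in GC, and 15.1, 16.4 and 11.5 TPM in GC+GW9662. The GC libraries stood apart from the other 5, which overlapped. The mean was 12.6-fold higher in GC than in Control (log2 difference 3.55 ± 0.17, adjusted p = 2.0e-06, limma; 4.06 after median-ratio scaling). This was the 74th highest difference of the 14985 genes tested. With GW9662 it was 10.9-fold lower than in GC (log2 difference -3.36 ± 0.15, adjusted p = 1.5e-06, limma), the 123rd lowest. GC+GW9662 against Control differed by 0.19 ± 0.17 (adjusted p = 0.36, limma; 95% interval -0.21 to 0.58), but by 0.86 (0.0056) after median-ratio scaling, 1.14 (0.0023) after quantile normalization and 0.66 (0.015) with the length trend removed, over a range of adjusted p from 0.0023 to 0.68. The Dusp5 gene shares 547 exon bases with an antisense gene, and these libraries carry no strand, so reads of the 2 genes cannot be told apart.

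Dusp4 (chr8:34807297-34819894, plus strand) encodes MKP-2, a nuclear enzyme related to Dusp1. It gave 30.9 and 27.3 TPM in Control, 63.0, 122 and 102 TPM in GC, and 10.7, 8.68 and 11.5 TPM in GC+GW9662. The 3 groups did not overlap, and GC replicate 1 was the lowest of its group. Dusp4 was 3.29-fold higher in GC than in Control (log2 difference 1.64 ± 0.27, adjusted p = 0.0012, limma; 2.17 after median-ratio scaling) and 9.32-fold lower with GW9662 than in GC (log2 difference -3.06 ± 0.24, adjusted p = 2.3e-05, limma). It also fell below Control in GC+GW9662, by 1.42 ± 0.27 on the log2 scale (adjusted p = 0.0033, limma). That difference was -0.73 after median-ratio scaling, and the call was lost after quantile normalization (-0.58, adjusted p = 0.065; range over alternatives 5.7e-05 to 0.065).

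Dusp2 (chr2:127336159-127338376, plus strand), known as PAC-1, is best known from activated immune cells. It was the least abundant of the 9 in Control, at 0.700 and 1.36 TPM, and reached 12.1, 11.7 and 9.22 TPM in GC and 3.29, 3.85 and 4.64 TPM in GC+GW9662. The estimated reads behind these values were 12 and 25 in Control, 185 to 229 in GC and 55 to 83 in GC+GW9662, so the Control level carries the larger counting error. The 3 groups did not overlap. The mean was 10.7-fold higher in GC than in Control (log2 difference 2.57 ± 0.23, adjusted p = 4.8e-05, limma; 2.85 after median-ratio scaling), on a scale that understates changes of genes this low. It was 2.80-fold lower with GW9662 than in GC (log2 difference -1.28 ± 0.21, adjusted p = 0.0011, limma). It was 3.81-fold above Control there (log2 difference 1.29 ± 0.23, adjusted p = 0.0030, limma; 1.70 after median-ratio scaling). Dusp2 was the only one of the 9 called higher between GC+GW9662 and Control.

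**Figure D2:**
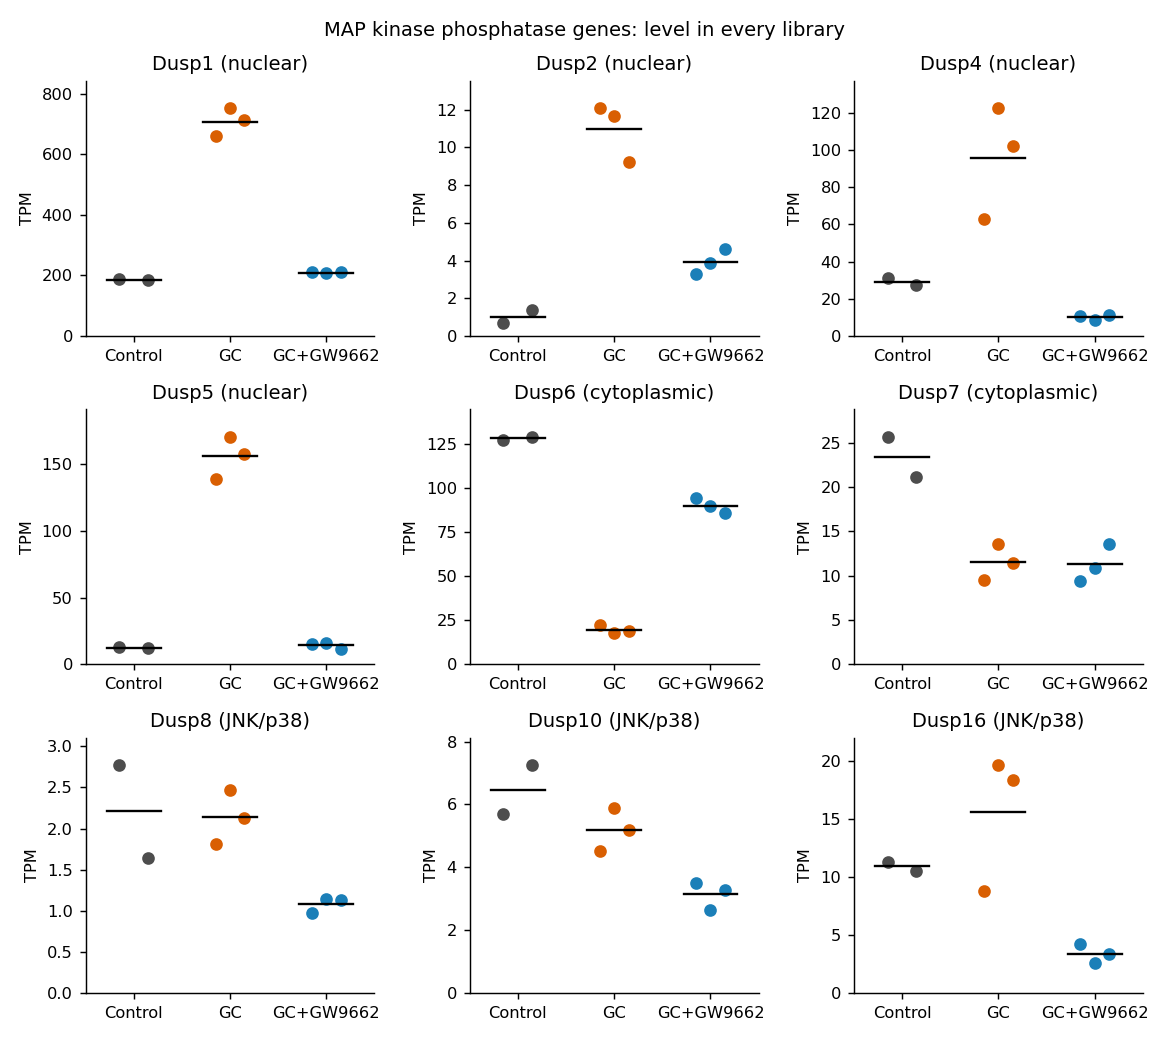
TPM of each MAP kinase phosphatase (linear axes from 0, 1 panel per gene) in the 2 Control, 3 GC and 3 GC+GW9662 libraries; points are libraries and horizontal bars are group means. The GC points of Dusp1, Dusp2, Dusp4 and Dusp5 lie above all others and those of Dusp6 below all others.

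Dusp6 and Dusp7, the cytoplasmic phosphatases for ERK, both fell in the libraries labelled GC. With GW9662 Dusp6 rose, and Dusp7 differed from GC by -0.03 on the log2 scale. Dusp6 (chr10:99263231-99267489, plus strand) encodes MKP-3, a feedback gene of ERK signalling. It was 127 and 129 TPM in Control, 22.2, 18.0 and 18.9 TPM in GC, and 94.2, 89.8 and 85.6 TPM in GC+GW9662. The groups did not overlap, with GC lowest and Control highest. The mean was 6.50-fold lower in GC than in Control (log2 difference -2.65 ± 0.12, adjusted p = 1.8e-06, limma; -2.10 after median-ratio scaling) and 4.56-fold higher with GW9662 than in GC (log2 difference 2.14 ± 0.11, adjusted p = 2.8e-06, limma). Dusp6 was the only one of the 9 called higher in GC+GW9662 against GC. Against Control it fell in GC+GW9662 by 0.51 ± 0.12 on the log2 scale (adjusted p = 0.0083, limma). That call turned to 0.22 (adjusted p = 0.38) after median-ratio scaling and was lost after quantile normalization (-0.30, 0.24), with the length trend removed (-0.04, 0.86) and without Control replicate 1 (0.060) or 2 (0.061), against a lowest adjusted p of 8.0e-04.

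Dusp7 (chr9:106368632-106375724, plus strand) encodes a cytoplasmic relative of Dusp6. It was 25.6 and 21.1 TPM in Control, 9.53, 13.5 and 11.4 TPM in GC, and 9.41, 10.8 and 13.6 TPM in GC+GW9662. Both treated groups lay below Control and overlapped each other. The log2 difference was -0.97 ± 0.21 in GC against Control (adjusted p = 0.0053, limma), -0.997 ± 0.21 in GC+GW9662 against Control (adjusted p = 0.0050, limma) and -0.03 ± 0.19 in GC+GW9662 against GC (adjusted p = 0.91, limma; 95% interval -0.47 to 0.41; 0.14 after median-ratio scaling). The call in GC against Control was lost after median-ratio scaling (-0.45, adjusted p = 0.077), after quantile normalization (-0.34, 0.17) and without Control replicate 1 (-0.83, 0.061), with a lowest adjusted p of 0.0043. The call against Control with GW9662 was lost in 4 alternatives, among them median-ratio scaling (-0.31, adjusted p = 0.18) and the fit without Control replicate 1 (-0.86, 0.053), in a range of 0.0011 to 0.67. Dusp9, the remaining cytoplasmic family member and no member of the list, averaged 0.595 TPM in Control, 1.79 in GC and 0.267 with GW9662. Unlike Dusp6 and Dusp7 it was called higher in GC against Control (log2 difference 0.81 ± 0.26, adjusted p = 0.029, limma). That call was lost in 5 of 20 alternatives. Its fall in GC+GW9662 against GC (-1.14) was called in all 20. These levels are near the filter of 1 TPM.

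The phosphatases for JNK and p38, Dusp8, Dusp10 and Dusp16, passed the test in neither direction in GC against Control, and all 3 fell in GC+GW9662 against GC. Dusp16 (chr6:134715468-134792625, minus strand) encodes MKP-7, a phosphatase for JNK. It gave 11.3 and 10.5 TPM in Control, 8.81, 19.6 and 18.3 TPM in GC, and 4.21, 2.60 and 3.33 TPM in GC+GW9662. GC replicate 1 lay below Control and the other two GC libraries above it. GC against Control differed by 0.40 ± 0.33 (adjusted p = 0.34, limma; 95% interval -0.37 to 1.18). Without GC replicate 1 the difference was 0.75 (adjusted p = 0.0094), and it also passed after median-ratio scaling (0.90, 0.014), after quantile normalization (1.09, 0.0041) and with the length trend removed (1.29, 2.5e-04), over a range up to 0.63. With GW9662 Dusp16 was 4.61-fold lower than in GC (log2 difference -1.86 ± 0.30, adjusted p = 0.0011, limma; -1.73 after median-ratio scaling). Its mean there was also 3.23-fold lower than in Control (log2 difference -1.46 ± 0.33, adjusted p = 0.0064, limma). That last call was lost after quantile normalization (-0.57, adjusted p = 0.062) and with the length trend removed (-0.02, 0.94), against a lowest adjusted p of 1.4e-04.

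Dusp10 (chr1:184013302-184075636, plus strand) encodes MKP-5, a phosphatase for JNK and p38. It was 5.68 and 7.25 TPM in Control, 4.52, 5.89 and 5.20 TPM in GC, and 3.50, 2.65 and 3.27 TPM in GC+GW9662. Control and GC overlapped, and GC+GW9662 lay below both. The log2 difference was -0.27 ± 0.21 in GC against Control (adjusted p = 0.31, limma; 95% interval -0.74 to 0.21) and 0.20 after median-ratio scaling (adjusted p = 0.36). It was -0.58 ± 0.18 in GC+GW9662 against GC (adjusted p = 0.025, limma), a call lost in 7 of 21 alternatives, 4 of which leave out 1 library (GC replicates 2 and 3 and GC+GW9662 replicates 2 and 3, each in turn), with adjusted p from 0.0085 to 0.075, and -0.45 after median-ratio scaling. Against Control, GC+GW9662 gave -0.85 ± 0.21 (adjusted p = 0.0080, limma), a call lost in 4 of 21 alternatives, among them median-ratio scaling (-0.25, adjusted p = 0.23) and the fit without Control replicate 2 (-0.69, 0.086), in a range of 0.0025 to 0.99.

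Dusp8 (chr7:142079490-142095843, minus strand) was low throughout, at 2.77 and 1.65 TPM in Control, 1.81, 2.47 and 2.13 TPM in GC, and 0.968, 1.14 and 1.13 TPM in GC+GW9662. Control and GC overlapped, and GC+GW9662 lay below both. Its estimated reads were 48 to 144 per library. GC against Control gave -0.01 ± 0.21 (adjusted p = 0.96, limma; 95% interval -0.51 to 0.48), but 0.34 (adjusted p = 0.17) after median-ratio scaling, 0.24 without Control replicate 1 and 0.87 (adjusted p = 0.014) with the length trend removed. GC+GW9662 against GC gave -0.59 ± 0.19 (adjusted p = 0.027, limma), a call lost in 8 of 20 alternatives, 4 of which leave out 1 library (GC replicates 2 and 3 and GC+GW9662 replicates 1 and 3, each in turn), with adjusted p up to 0.90, and -0.50 after median-ratio scaling. GC+GW9662 against Control gave -0.60 ± 0.21 (adjusted p = 0.037, limma), a call that did not hold in 11 of 20 alternatives. Those include median-ratio scaling (-0.16, adjusted p = 0.50) and the fits without Control replicate 1 (-0.35, adjusted p = 0.33), without GC replicate 3 (0.059) and without GC+GW9662 replicate 1 (0.079), 2 (0.058) or 3 (0.061), against a lowest adjusted p of 0.023. Dusp8 shares 66 exon bases with Gm32786, a long non-coding RNA gene on the opposite strand annotated as sharing a bidirectional promoter, which averaged at most 0.303 TPM in any group.

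The makeup of the family's RNA differed between the groups. The 9 genes summed to 399.9 ± 5.43 TPM in Control (SD, n = 2), 1024 ± 97.5 in GC (SD, n = 3) and 346 ± 4.76 in GC+GW9662 (SD, n = 3). The nuclear phosphatases made up 57.2% of that sum in Control, 94.7% in GC and 68.6% with GW9662. The cytoplasmic pair Dusp6 and Dusp7 made up 37.9%, 3.07% and 29.2%, and the JNK and p38 group 4.90%, 2.21% and 2.19%. Dusp1 alone held 46.6%, 69.2% and 60.4%. Dusp5 held 3.08%, 15.2% and 4.14%, and Dusp6 held 32.0%, 1.95% and 25.9%. The ratio of Dusp1 to Dusp6, which does not depend on the scaling of a library, was 1.44 and 1.47 in the Control libraries, 29.7 to 41.6 in GC and 2.24 to 2.45 in GC+GW9662. The 3 groups did not overlap in that ratio.

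**Figure D3:**
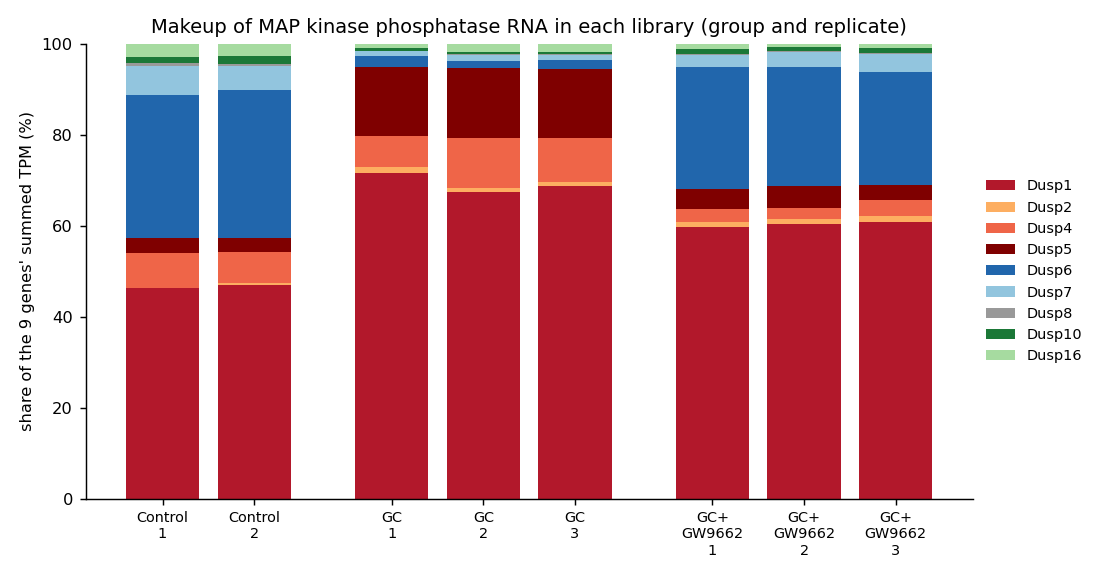
Share (%) of each gene in the summed TPM of the 9 MAP kinase phosphatases, 1 stacked bar per library. Dusp6 is the second largest part in Control and GC+GW9662 (32.0% and 25.9% on average) and 1.95% in GC, where Dusp5 is the second largest (15.2%).

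TPM is per gene length, so levels can be ordered between genes. The order of mean TPM in Control was Dusp1, Dusp6, Dusp4, Dusp7, Dusp5, Dusp16, Dusp10, Dusp8 and Dusp2, and no neighbours overlapped, in a group of only 2 libraries. In GC it was Dusp1, Dusp5, Dusp4, Dusp6, Dusp16, Dusp7, Dusp2, Dusp10 and Dusp8. There Dusp6 overlapped Dusp16, Dusp16 overlapped Dusp7 and Dusp7 overlapped Dusp2. In GC+GW9662 the order was Dusp1, Dusp6, Dusp5, Dusp7, Dusp4, Dusp2, Dusp16, Dusp10 and Dusp8. There Dusp7 overlapped both Dusp5 and Dusp4, and Dusp16 overlapped both Dusp2 and Dusp10.

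The kinases and targets around these phosphatases were read from lists in the same fit. Over all genes 16.2% were called higher and 39.1% lower in GC against Control, and 28.3% and 33.5% in GC+GW9662 against GC. Between GC+GW9662 and Control these shares were 14.1% and 48.6%, and no list was tested against them. In GC against Control 4 of 17 genes of the ERK arm rose and 7 fell (median log2 difference -0.23, beside -0.38 for all genes). After median-ratio scaling 6 rose and 4 fell, and with the length trend removed 7 rose and 3 fell. The balance of this list thus depends on the processing. Without Control replicate 1, 4 rose and 4 fell. Mapk3, which encodes the kinase ERK1, fell from 246 ± 0.542 TPM in Control to 61.0 ± 2.59 in GC (log2 difference -1.99 ± 0.10, adjusted p = 3.1e-06, limma). Rps6ka1, which encodes the ERK-activated kinase RSK1, fell from 54.9 ± 3.33 to 5.69 ± 1.28 TPM and was 23.0 ± 3.70 TPM with GW9662. In GC+GW9662 against GC 3 of the 17 rose and 11 fell (median -0.60, beside -0.11). Without GC replicate 3 or GC+GW9662 replicate 2, 3 rose and 8 fell. Between GC+GW9662 and Control 1 rose and 10 fell, but 6 and 6 after median-ratio scaling, and 2 and 10 without GC+GW9662 replicate 3. With the length trend removed 7 rose and 2 fell there, which reversed the balance.

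ERK-induced feedback and target genes, a list of 12 without the phosphatases, did not move as a block. In GC against Control 5 rose and 4 fell (median -0.11), and in GC+GW9662 against GC 2 rose and 6 fell (median -0.49). The first count was 6 and 2 after median-ratio scaling, and 3 and 2 without Control replicate 1, Control replicate 2 or GC replicate 3. The transcription factor gene Egr1 went from 34.3 ± 0.548 TPM in Control to 151 ± 58.2 in GC and 14.7 ± 1.36 in GC+GW9662. Fosl1, which encodes the AP-1 subunit FRA1, went from 30.3 ± 1.74 to 201 ± 75.9 and 10.6 ± 1.67 TPM. Phlda1 rose furthest, from 12.4 ± 0.554 to 353 ± 183 TPM, and was 3.46 ± 0.623 TPM with GW9662. All 3 passed in both comparisons, with limma adjusted p of 6.6e-05 to 8.0e-04 in GC against Control. Like Dusp4, they had the order GC, Control, GC+GW9662 in mean TPM. Spry1, which encodes an inhibitor of receptor tyrosine kinase signalling, was lowest in GC and highest in Control, as Dusp6 was. It fell from 49.0 ± 0.760 to 4.57 ± 0.890 TPM (log2 difference -3.18 ± 0.17, adjusted p = 3.2e-06, limma) and was 23.5 ± 1.40 TPM with GW9662. Against Control 9 of 12 fell in GC+GW9662 and 0 rose. After median-ratio scaling 1 rose and 5 fell, after quantile normalization 2 and 4, and with the length trend removed 2 and 3. Without GC replicate 1 or 2, 1 rose and 9 fell.

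On the JNK and p38 side, among genes averaging at least 5 TPM in a compared group, Mapk8 and Map2k3 were called higher in GC against Control. Both were called lower in GC+GW9662 against GC. Others, Mapk9 and Mapkapk2 among them, also had their highest mean in GC but were not called against Control. Of 9 tested JNK arm genes 1 rose and 2 fell in GC against Control (median -0.09), and 2 rose and 6 fell in GC+GW9662 against GC (median -0.98). Mapk8, which encodes JNK1, rose from 10.2 ± 0.811 to 20.99 ± 3.99 TPM (log2 difference 0.96 ± 0.19, adjusted p = 0.0033, limma) and fell to 7.54 ± 0.227 TPM with GW9662 (log2 difference -1.35 ± 0.17, adjusted p = 3.1e-04, limma). Of 13 p38 arm genes 2 rose and 7 fell in GC against Control (median -0.87), and 3 rose and 4 fell in GC+GW9662 against GC (median 0.00). The first count was 1 and 6 without Control replicate 1 and 1 and 4 without Control replicate 2. The second was 1 and 3 without GC replicate 3, 1 and 4 without GC+GW9662 replicate 1 or 3, and 6 and 4 with the length trend removed. Map2k3, which encodes an activator of p38, was 101 ± 3.84 TPM in Control, 295 ± 60.8 in GC and 60.2 ± 10.5 with GW9662 (log2 differences 1.51 ± 0.21 and -2.26 ± 0.19, adjusted p = 4.6e-04 and 2.9e-05, limma). Map3k5, which encodes the stress-activated kinase ASK1, fell from 10.5 to 1.29 TPM in GC (log2 difference -2.39 ± 0.32, adjusted p = 3.7e-04, limma). Against Control, 1 JNK arm gene rose and 6 fell in GC+GW9662, and 7 p38 arm genes fell. After median-ratio scaling these became 1 and 4, and 1 and 4. With the length trend removed they became 3 and 2 in the JNK arm and 1 and 5 in the p38 arm. In GC against Control median-ratio scaling gave 3 rises and 2 falls in the JNK arm, reversing its balance, and 3 and 5 in the p38 arm. The JNK arm gave 2 and 2 there without GC replicate 1. The 1 JNK arm gene that rose in GC+GW9662 against Control was lost without Control replicate 1 or 2, GC replicate 3, or GC+GW9662 replicate 1 or 3.

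Phosphatases outside the 9 genes moved in both directions, as did genes over the whole table (16.2% higher and 39.1% lower in GC against Control). Of 15 tested dual-specificity phosphatases 3 rose and 7 fell in GC against Control (median -0.15), and 5 and 5 after median-ratio scaling. They gave 3 rises and 6 falls in GC+GW9662 against GC, and 3 and 7 in GC+GW9662 against Control, which became 6 and 3 after that scaling. Without Control replicate 1, GC had 3 rises and 4 falls against Control and GC+GW9662 had 2 and 4, and without Control replicate 2 those in GC were 2 and 4. Without GC replicate 1, 5 rose and 6 fell in GC+GW9662 against GC. Dropping any other single library given dexamethasone cut the falls in that comparison from 6 to 4, with 3 or 4 rises. Either replicate block and a fit of these 2 groups alone gave 3 rises and 4 falls. With the length trend removed 5 rose and 4 fell. Leaving out either Control library, outside that comparison, also lowered the falls. The count of falls there thus depends on single libraries and on the fit. Dusp22, a small phosphatase linked to JNK signalling, went from 19.0 ± 0.905 TPM in Control to 5.60 ± 0.176 in GC and 21.1 ± 1.97 in GC+GW9662 (log2 differences -1.60 ± 0.15 and 1.74 ± 0.13, adjusted p = 5.8e-05 and 2.1e-05, limma), falling and rising as Dusp6 did. Ssh2, a cofilin phosphatase, fell from 63.4 ± 2.79 to 6.57 ± 3.39 TPM (log2 difference -3.19 ± 0.35, adjusted p = 1.3e-04, limma). Of 6 tested MAP kinase phosphatases of other classes 1 rose and 1 fell in GC against Control, and 4 rose and 1 fell after median-ratio scaling. In GC+GW9662 against GC 1 rose and 3 fell, and in GC+GW9662 against Control 4 fell, against 2 rises and 2 falls after median-ratio scaling and 2 falls without Control replicate 1 or 2. Without GC replicate 1, 2 rose and 1 fell in GC against Control, and without GC replicate 3 the 1 rise in GC+GW9662 against GC was lost. Ptpn7, a tyrosine phosphatase of blood cells that acts on ERK and p38, fell from 8.51 ± 0.631 to 0.792 ± 0.232 TPM in GC (log2 difference -2.41 ± 0.23, adjusted p = 6.3e-05, limma). Ppp2ca, which encodes a catalytic subunit of PP2A, rose from 102 ± 3.51 to 176 ± 5.84 TPM (log2 difference 0.78 ± 0.0947, adjusted p = 2.2e-04, limma).

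**Figure D4:**
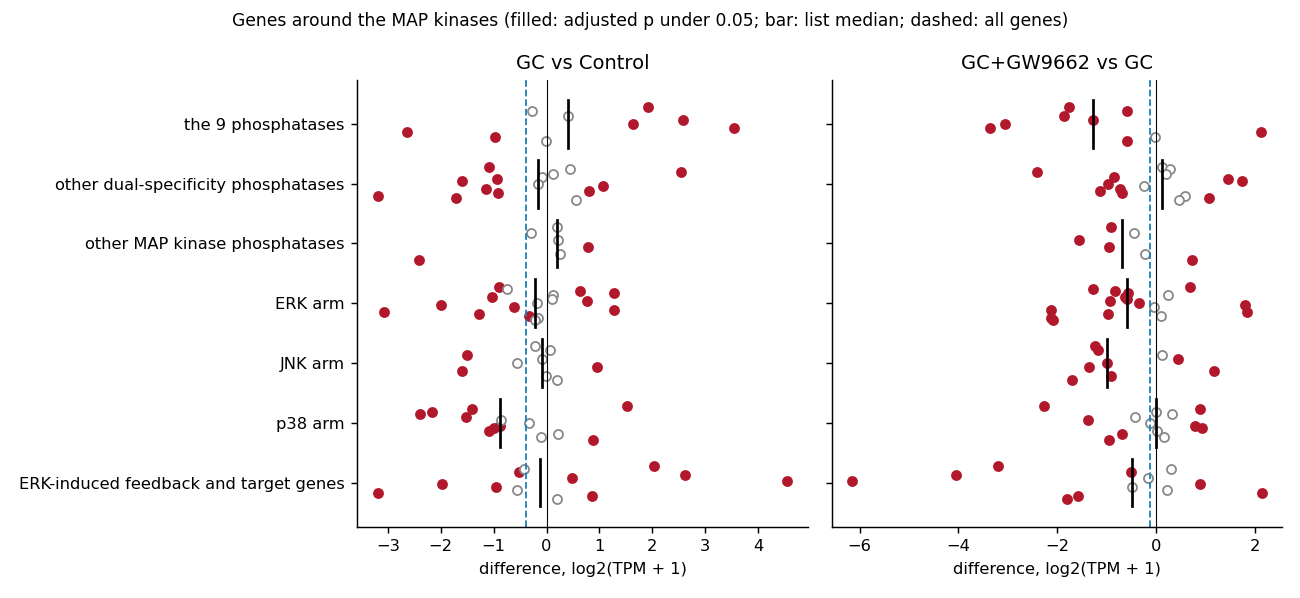
Log2(TPM + 1) differences of the tested genes of each pathway list and of the 9 phosphatases in GC against Control and GC+GW9662 against GC; points are genes (filled where the adjusted p was under 0.05), bars are list medians and the dashed line is the median of all genes. In GC against Control the phosphatases have a median of 0.40, and the p38 arm the lowest median (-0.87).

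The genes whose values lay closest to each phosphatase over the 8 libraries were found by Pearson r of log2(TPM + 1) among 9799 genes. These points fall into 3 groups, so r mostly reads the order of the groups, and 91 or more genes reached 0.95 for each of the 9 except Dusp8. Dusp5 lay closest to Socs1, an inhibitor of cytokine signalling (r = 0.9996, n = 8), which averaged 1.76 TPM in Control, 73.8 in GC and 2.16 with GW9662. Dusp1 lay closest to Odc1, the rate-limiting enzyme of polyamine synthesis, and the histone gene H2afx (both r = 0.999), with 456 genes at 0.95 or above. Dusp2 lay closest to Hist1h3e (0.995) and Dpm2 (0.988), with 91 such genes, and Dusp4 to Sgpl1 (0.999) and Ero1l (0.998), with 778. Dusp6 lay closest to Trim47 and Cnp (both 0.999), with 864 such genes, and Dusp7 to Shc4 (0.988) and Nprl3 (0.985), with 157. Dusp16 lay closest to Ints13 (0.998) and AU019823 (0.997), with 993, and Dusp10 to Acot7 (0.986) and Tcaim (0.985), with 245. Dusp8 stood most alone, with Dok4 (0.958) and Plekha8 (0.949) closest and 1 gene at 0.95 or above.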

How the data were processed

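RNA of 8 Smart-Seq2 libraries (Control 2, GC 3, GC+GW9662 3) was analysed from the TPM values the authors deposited, 1 table for the series. Per the submitters' processing notes reads went through HISAT2 2.1.0, fastp and featureCounts, in no stated order; genome build and annotation are not given in the sources used here. Positions equalled those of GENCODE M21 (GRCm38) for 97.4% of rows and for 8 of the 9 phosphatases (the end of Dusp1 differs), so they are given as deposited. The 54232 rows hold 54134 genes, each used once, and 27 symbols turned into dates were restored by identifier. TPM keeps no depth by itself, so reads were estimated. Of 26812 genes, 11684 were whole multiples of a read (tolerance 0.02) at the M21 exon length. Another 15063 were whole at a length solved from the values. A length was solved so as to make the values whole, so the second count is no check of the first. Estimated reads used the M21 length for Dusp4 and Dusp5 and a solved length for the other phosphatases. Because TPM is not a count, no count test was run. No molecular identifiers were used, so amplified reads can repeat a molecule and these numbers cover counting error only.

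The filter kept 14985 genes (2 libraries or more at 1 TPM or more), compared as log2(TPM + 1), pseudocount 1, with limma 3.58.1 in R 4.3.3, a mean per group over all 8 libraries, a prior trending with mean level, and two-sided p-values adjusted by Benjamini-Hochberg over all genes tested at 0.05. Fold changes are ratios of mean TPM. A difference on the log2(TPM + 1) scale understates changes of low genes. Groups do not overlap where every library of one lies above every library of the other. The script was tested on simulated data. Other computations used Python 3.11.15, pandas 2.3.3 and matplotlib 3.10.9.

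Named genes are all 9 phosphatases, Nr3c1, Fkbp5, Tsc22d3 and Pparg as label checks, up to 4 called genes of largest difference per pathway list and comparison with a mean of at least 5 TPM in a compared group, and the 2 closest genes per phosphatase. Dusp9, Fth1 and the overlapping genes fall outside that rule and were chosen after their values were seen. Some items are not reported here. The members and lists were chosen with earlier results of these data known. Nr3c1, the glucocorticoid receptor gene, averaged 34.1 TPM in Control, 16.2 in GC and 5.74 with GW9662, and Pparg 7.57, 2.94 and 17.6 TPM in that order. Alternatives per comparison (21) were pseudocounts of 0.1 and 5, a minimum of 5 TPM, no filter, quantile normalization, median-ratio scaling, removal of the length trend, a new total that drops mitochondrial and the top 20 genes, other fits and priors, replicate blocks, and each library left out.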

Additional observations from a re-analysis of the deposited data

How the results depend on the processing

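The calls and directions of Dusp1, Dusp2, Dusp4, Dusp5 and Dusp6 in GC against Control, of these and Dusp16 in GC+GW9662 against GC, and of Dusp2 in GC+GW9662 against Control held in all 21 alternatives. Turned directions with a call before or after were those of Dusp8 with the length trend removed (0.87 in GC against Control and 0.84 in GC+GW9662 against Control), of Dusp6 in GC+GW9662 against Control after median-ratio scaling (0.22) and of Dusp10 there after quantile normalization (0.0040). Uncalled differences also changed sign, for Dusp8 and Dusp10 in GC against Control and Dusp7 in GC+GW9662 against GC, without being called; for Dusp8 they included the fits without Control replicate 1 (0.24) and GC replicate 1 (0.06), and for Dusp7 those without GC replicate 2 (0.09) and GC+GW9662 replicate 1 (0.08). The cause was not tested. Members called in GC+GW9662 against Control went from 7 (1 higher and 6 lower) to 2 after quantile normalization (2 higher and 0 lower). Leaving out 1 library gave 4 to 7 members called there, 5513 to 9233 genes called in GC against Control and 5598 to 10329 in GC+GW9662 against Control, the lowest of each without Control replicate 1. Leaving out a Control library leaves 1, assumed to vary like the other groups. Titles share replicate numbers, but deviations of same-numbered GC and GC+GW9662 libraries correlated at -0.19, -0.21 and 0.03, and unlike numbers at -0.10 to 0.22, so the numbers were not taken to pair libraries. With the title number as a replicate block 7145, 8351 and 8368 genes were called in GC against Control, GC+GW9662 against GC and GC+GW9662 against Control, and with the bracketed number 7329, 8448 and 8365. Either block left 6 members called in each comparison. Few reads limit Dusp2 in Control and Dusp8 throughout.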
